A study of Mus musculus with 4 samples.

Results

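Mid-size peak clusters are stretches of the genome in which 10 to 39 accessible regions lie close together. They were taken from a list of ATAC-seq peaks in mouse hair follicle stem cells by joining every peak on chromosomes 1 to 19 to its neighbour where the gap between them was under 12.5 kb. The rule left 374 clusters with 5122 peaks, which is 6.85% of the 74777 peaks in the list and 7.11% of the 72012 on chromosomes 1 to 19. Each cluster was named by the RefSeq GRCm38 protein-coding genes whose bounds it shared a base with. Peak positions alone chose the members, so the counts, gaps and spans below describe that choice and carry no test.

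ATAC-seq uses the transposase Tn5 to insert sequencing adapters into open DNA. The cells came from the back skin of female mice aged 30 postnatal days; the sort kept those with the H2BGFP reporter, CD34 and CD49f and without Sca-1. The Foxc1 knockout carried K14-H2BGFP, K14Cre and Foxc1 fl/fl, and the control carried K14-H2BGFP and Foxc1 fl/fl, so that both genotypes held the floxed alleles and the reporter and differed by Cre. The K14 promoter is active in the keratin 14-positive epithelium, so Cre was not restricted to the stem cells. Each genotype was 1 library sequenced in 2 runs, and the list used here is shared by both genotypes, with a chromosome, a start and an end for each peak and no score, read count or genotype. Knockout and control peaks therefore cannot be told apart, and the comparison between them was not made.

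Clusters of accessible regions are of interest because genes that define a cell type often have several enhancers, spread over their introns and flanks, that bind many transcription factors together. Super-enhancers, usually defined from histone acetylation or cofactor binding, are the best known kind, and in hair follicle stem cells they have been described at genes of stem cell identity. Accessibility alone does not separate enhancers from promoters, insulators or repeated DNA. The word enhancer could not be checked here, since the list holds no histone mark and no signal. What the list does show is that 92.5% of the members on chromosomes with listed start windows (4595 of 4967, 95% Wilson interval 91.7 to 93.2%) lay outside the window from 250 bases before to 50 bases after a protein-coding start. Most of that share was common to the list, since 86.9% of the other autosomal peaks (55980 of 64418) lay outside these windows as well. The windows covered 16457 of the 20665 protein-coding genes of chromosomes 1 to 19. A peak over an unlisted start was counted as outside, so both shares may be too high.

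A protein-coding gene was counted as open at an end when a peak of the list touched the ground within 1 kb of either bound. This held for 25 of 28 hair follicle stem cell genes and 21 of 24 basal keratinocyte genes, against 58.9% of all 20665 protein-coding genes of chromosomes 1 to 19. Among lists that mark no cell type, 17 of 18 housekeeping and 22 of 25 cell cycle genes were open. Junction and cytoskeleton genes, which include desmosome genes, were open in 23 of 25 cases. Epidermal differentiation genes were open in 12 of 24 cases, and hair shaft and root sheath genes in 6 of 19. Markers of other cell types were open in 8 of 12 sebaceous, 8 of 18 dermal fibroblast, 8 of 20 immune cell, 4 of 15 melanocyte, 3 of 17 endothelial and 3 of 17 neuronal cases. Most markers of the sorted cells were thus open at an end, as were most housekeeping and cell cycle genes.

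The DNA just upstream of a gene start is the part of these clusters for which sequence was at hand, and 5 promoters are printed because a member peak covers each of them at a gene named below. They are the 250 bases before a RefSeq start (GRCm38.p6, the same coordinates as mm10), all on the plus strand: Lhx2 at chr2:38351058-38351307, Egfr at chr11:16751953-16752202, Dst at chr1:34160010-34160259, Itgb1 at chr8:128685404-128685653 and Bach1 at chr16:87698704-87698953. Capitals mark matches to 10 short motifs, searched on both strands as written, none of which is contained in another: forkhead TGTTTAC, AP-1 TGANTCA, LIM homeobox TAATTA, SOX ACAATGG, TCF/LEF CTTTGAA, RUNX TGTGGT, NFI TTGGCA, ETS CCGGAAG, KLF/SP GGGCGG and NFAT TGGAAA.
Lhx2: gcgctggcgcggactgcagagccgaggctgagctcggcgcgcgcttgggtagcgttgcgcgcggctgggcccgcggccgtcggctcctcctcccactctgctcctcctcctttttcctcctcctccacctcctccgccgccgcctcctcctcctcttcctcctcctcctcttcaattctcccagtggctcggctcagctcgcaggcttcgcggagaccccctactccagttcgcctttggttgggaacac
Egfr: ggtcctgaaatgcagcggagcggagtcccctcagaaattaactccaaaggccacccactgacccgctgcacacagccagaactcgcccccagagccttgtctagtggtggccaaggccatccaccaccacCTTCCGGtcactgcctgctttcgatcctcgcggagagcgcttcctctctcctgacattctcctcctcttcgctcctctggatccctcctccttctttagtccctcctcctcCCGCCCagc
Dst: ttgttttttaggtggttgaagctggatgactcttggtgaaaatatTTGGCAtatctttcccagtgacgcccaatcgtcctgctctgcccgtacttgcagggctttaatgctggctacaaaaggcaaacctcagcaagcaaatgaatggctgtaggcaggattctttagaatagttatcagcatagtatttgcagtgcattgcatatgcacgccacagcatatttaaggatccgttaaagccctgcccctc
Itgb1: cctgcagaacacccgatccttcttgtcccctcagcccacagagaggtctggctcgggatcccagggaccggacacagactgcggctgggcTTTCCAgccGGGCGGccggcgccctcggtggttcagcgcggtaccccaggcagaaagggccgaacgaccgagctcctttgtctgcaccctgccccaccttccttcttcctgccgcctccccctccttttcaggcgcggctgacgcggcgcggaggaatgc
Bach1: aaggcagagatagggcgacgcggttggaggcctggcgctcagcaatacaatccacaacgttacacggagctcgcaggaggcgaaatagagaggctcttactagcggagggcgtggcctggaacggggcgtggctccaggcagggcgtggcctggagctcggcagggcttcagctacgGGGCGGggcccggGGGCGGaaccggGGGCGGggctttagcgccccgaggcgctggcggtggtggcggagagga

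None of the 10 motifs was found in the printed Lhx2 bases, which are rich in runs of ctcctc. The Egfr bases held an ETS match at position -120 from the start and a KLF/SP match at -9. In the Dst bases the one match was an NFI word at -205. The Itgb1 bases held an NFAT word at -160 beside a KLF/SP word at -151, and the Bach1 bases held 3 KLF/SP words at -73, -60 and -48. A match describes the letters and does not show that a factor binds.

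Over all 20085 protein-coding start windows of 300 bases, 396 were covered by a member peak and 9243 by another peak. The KLF/SP word was present in 61.6% of windows under member peaks (95% Wilson interval 56.7 to 66.3%), 69.6% of windows under other peaks and 47.0% of all windows. The ETS word stood in 12.4% of windows under member peaks (9.49 to 16.0%), 20.6% of those under other peaks and 11.9% of all windows. The AP-1 word was held by 5.30% of windows under member peaks, 4.96% of those under other peaks and 7.06% of all windows. The forkhead word was held by 1.77% of windows under member peaks (7 windows), 2.43% of those under other peaks and 3.04% of all windows. The NFAT word was held by 15.9% of windows under member peaks, 15.6% of those under other peaks and 19.4% of all. For the NFI word the shares were 8.08% under member peaks, 10.2% under other peaks and 13.1% of all windows. The RUNX word was present in 9.09% of windows under member peaks, 11.1% under other peaks and 14.8% of all windows. The LIM homeobox word had shares of 2.02%, 2.03% and 4.48% in the same order. In that order the TCF/LEF word had 2.27%, 3.05% and 4.45%, and the SOX word 1.26%, 1.66% and 2.87%. The median GC content was 60.3% under member peaks, 62.3% under other peaks and 57.0% over all windows, and its part in the motif shares was not tested.

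Most clusters were close to the lower bound of the rule. There were 100 clusters of 10 peaks, 66 of 11 and 52 of 12, with a median of 12 (quartiles 10 and 15), and 38 clusters reached 20 peaks or more. A cluster spanned a median of 55.0 kb, with quartiles of 44.2 and 68.7 kb and extremes of 15049 and 190819 bp. Its peaks together covered a median of 11.5 kb, which was 20.5% of the span (quartiles 16.5 and 27.0%). The gap between neighbouring member peaks had a median of 2527 bp, against 3522.5 bp in clusters of 2 to 9 peaks. The plot of cluster sizes shows the long right tail.

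**Figure D1:**
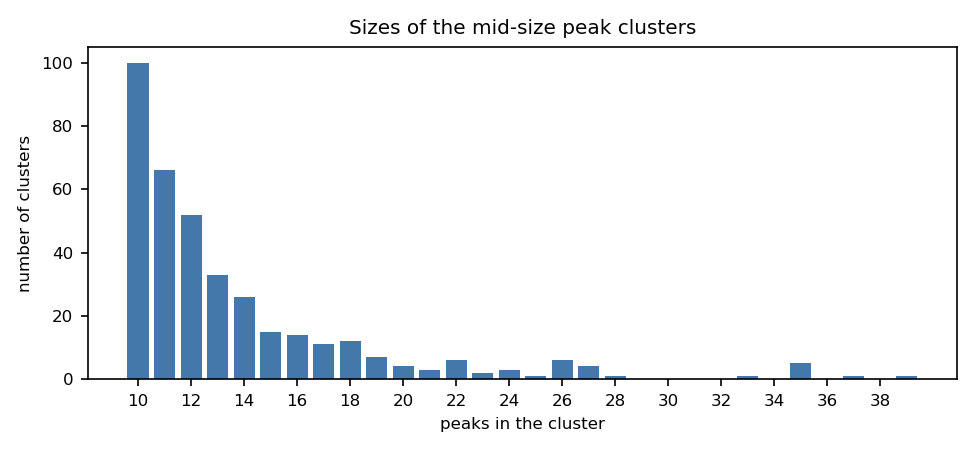
Number of mid-size clusters (y axis) by the number of peaks they hold (x axis, 10 to 39), 1 bar per size. The tallest bar is 100 clusters of 10 peaks, and only 8 clusters hold 30 or more.

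The bounds of the rule cut a continuous range. Just inside the lower bound, the 100 clusters of 10 peaks spanned a median of 44638.5 bp with a median peak width of 688.5 bp. Just outside it, the 136 clusters of 9 peaks spanned 41972.5 bp with a median peak width of 762 bp. At the upper bound, 1 cluster held 39 peaks, none held 38, and 20 clusters with 1663 peaks lay above 39. The joining distance was near its limit in some members: 46 clusters had an inner gap of 12 kb or more, and 31 had a further peak 12.5 to 13 kb beyond an end.

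Member peaks were wider than the rest of the autosomal list. Their median width was 714 bp (quartiles 416 and 1229, n = 5122), against 586 bp for the other peaks (quartiles 342 and 1020, n = 66890). Peaks of over 3 kb made up 2.69% of members (95% Wilson interval 2.29 to 3.17%) and 1.02% of the other peaks (0.943 to 1.10%). At the other end, 4.20% of members and 6.48% of the other peaks had the smallest width in the list, 200 bp. Width was not independent of the rule, because gaps ran from the end of one peak to the start of the next. With gaps measured between midpoints the medians still differed by 118 bp, whereas with gaps under 5 kb the members were 14 bp narrower than the rest.

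Width did not climb evenly with cluster size. The median was 484 bp for peaks with no neighbour within the gap, 607 bp in clusters of 2 to 4 peaks, 691 bp in clusters of 5 to 9, 747 bp in clusters of 10 to 14, 693 bp in the 59 clusters of 15 to 19 and 770.5 bp in clusters of 20 to 29. In the 8 clusters of 30 to 39 peaks it was 443 bp, and above 39 peaks it was 569 bp. Of those 8 clusters, 4 lay on chromosome 4 around zinc finger genes, 1 held the 5S ribosomal RNA genes and 1 lay in Snhg14.

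**Figure D2:**
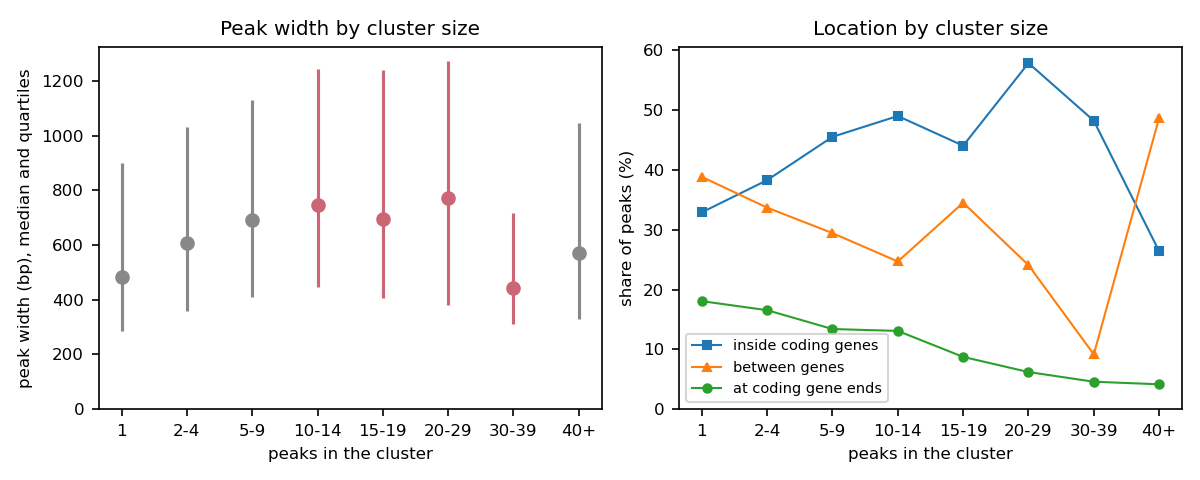
Left, peak width in bp (y axis, dots are medians and lines run between the quartiles) by the number of peaks in the cluster (x axis), with the mid-size clusters in red. Right, the share of peaks (%) inside protein-coding genes, between genes and at protein-coding gene ends in the same size classes. The share at gene ends falls from 18.1% for lone peaks to 4.58% in clusters of 30 to 39, while the share inside genes is highest, at 57.9%, in clusters of 20 to 29.

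Member peaks lay most often in the bodies of protein-coding genes. Each peak was placed by its midpoint, first at a gene end (within 1 kb of a bound), then inside a gene, then between genes. Inside protein-coding genes lay 49.3% of members (2523 of 5122, 95% Wilson interval 47.9 to 50.6%), against 37.9% of the other peaks. Protein-coding gene ends held 10.8% of members (9.99 to 11.7%) and 16.0% of the other peaks. Ends of genes that do not encode proteins held 7.56% of members (6.86 to 8.31%) and 4.90% of the other peaks. Ground between genes held 25.6% of members (24.5 to 26.8%) and 34.7% of the other peaks. The intervals cover counting error only, and peaks of 1 cluster share their gene, so they are not independent. This layout was not particular to the mid-size clusters. Just below the lower bound, peaks in clusters of 9 lay 50.2% inside protein-coding genes, 12.7% at their ends and 29.5% between genes. In clusters of 8 the shares were 51.8%, 13.2% and 23.2% in the same order.

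The width difference was found away from gene starts as well as over them. Inside protein-coding genes the median width was 742 bp for members and 565 bp for the other peaks, and between genes it was 628 bp for members and 464 bp for the other peaks. At protein-coding gene ends the medians were 1306.5 bp for members and 1192.5 bp for the other peaks. At the ends of other genes the order turned round, with 597 bp for members and 638 bp for the other peaks. Outside all listed start windows the members had a median of 667 bp, against 519 bp for the rest. Over listed start windows the medians were 1695.5 bp for members and 1325 bp for the rest.

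**Figure D3:**
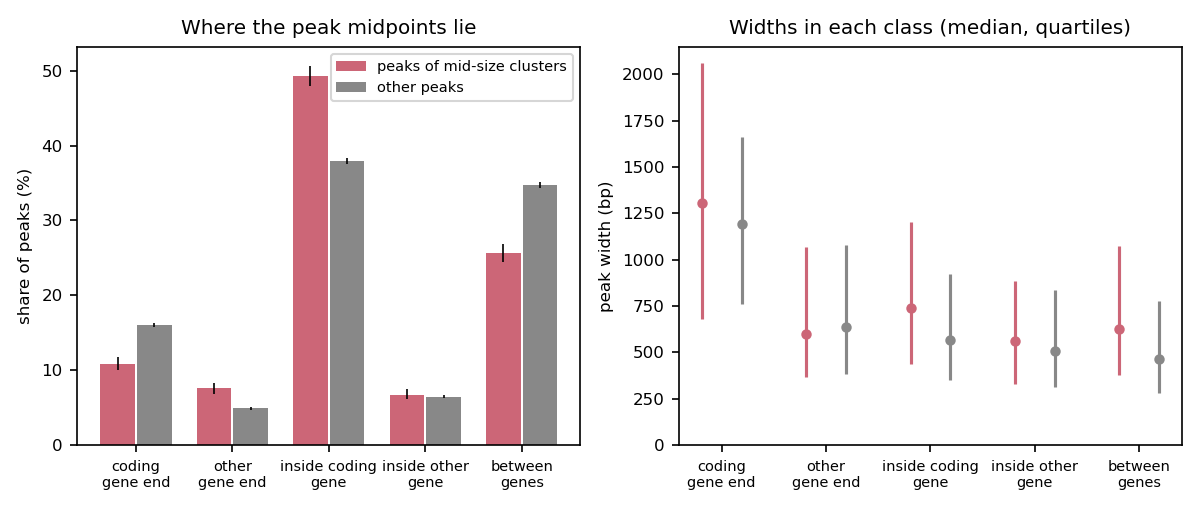
Left, share of peaks (%) in each of 5 locations, for peaks of mid-size clusters (red) and the other autosomal peaks (grey); lines are 95% Wilson intervals. Right, peak width in bp in the same classes, with dots for medians and lines between the quartiles. Members have the larger share inside protein-coding genes and the larger median width in every class except the ends of other genes.

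Of the 374 clusters, 335 (89.6%) shared a base with a protein-coding gene. A single gene was overlapped by 194 clusters, 2 genes by 71 and 3 or more by 70. A further 29 clusters touched only genes of other kinds, and 10 touched no gene. In 60 clusters the whole stretch lay inside a protein-coding gene. Among those were Runx1, Barx2, Ets1 and Lama3, described below, as well as Pdzd2 and Trio, each with 2 separate clusters. Tiam1, which like Trio encodes a guanine nucleotide exchange factor, also carried 2 clusters; 9 genes did so and none carried 3.

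The widest peak of a cluster was at a protein-coding gene end in 136 clusters and in the body of a protein-coding gene in 146. It held a median of 19.3% of the accessible bases of its cluster, and over 50% of them in 3 clusters. Where strand was known, 148 clusters overlapped exactly 1 gene. Of these, 63 spanned its start end only, 30 both ends, 14 the far end only and 41 neither end.

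The clusters touched 693 of the 20665 protein-coding genes on these chromosomes, or 3.35%, and this share stands beside each gene list below. The lists hold genes of different lengths, and a long gene offers more ground, so the median length is given with the main counts. Overlapped genes as a whole had a median length of 18.0 kb, against 17.5 kb for the other genes, but they included more long ones, with an upper quartile of 72.3 kb for overlapped genes and 44.4 kb for the others. The members were chosen by position in the same list, the gene lists were drawn up with earlier results of these data known, and nothing is read from the shares beyond their size. Over the 18 lists, 33 of 376 genes were overlapped, each by its own cluster. Those 33 clusters held 448 peaks, of which 52.5% lay inside protein-coding genes, 22.3% between genes and 12.1% at protein-coding gene ends.

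Hair follicle stem cell genes were overlapped in 4 of 28 cases, Lhx2, Runx1, Vdr and Barx2 (median length of the list 60.6 kb). Lhx2 encodes a LIM homeobox factor that keeps follicle stem cells quiescent. Its cluster had 10 peaks over 33.9 kb, of which 40.1% was accessible. A 2495 bp peak covered the start printed above, and the widest peak, of 3892 bp at chr2:38375958-38379849, was 1 of 3 that lay beyond the far end of the gene. The Lhx2 cluster thus had its broadest accessible region outside the gene.

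Runx1, a Runt-domain factor involved in the activation of follicle stem cells, showed a different layout. All 11 peaks lay inside the gene, packed into 26.3 kb of its 225 kb, with widths of 200 to 1856 bp. The peaks were between 65891 and 91414 bp from the nearest listed start, so the cluster occupied the gene interior only. No peak of the list touched an end of Runx1 within 1 kb.

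Barx2 encodes a homeobox factor present in the hair follicle, and its 11 peaks were likewise all inside the gene, over 33.1 kb with 30.4% accessible. Their widths ran from 306 to 1932 bp. The cluster at Vdr, the vitamin D receptor required for hair cycling, was looser, with 13 peaks over 89.9 kb and 14.7% accessible. It reached into Hdac7, a histone deacetylase gene, and 8 of its peaks lay within the bounds of Vdr. Its widest peak, of 2367 bp, was inside Vdr and not at the start, where 2 peaks measured 1266 and 468 bp.

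Basal keratinocyte genes were overlapped in 6 of 24 cases (median length 36.8 kb), namely Egfr, Lama3, Dst, Itgb1, Cdh3 and Krt17. Egfr encodes the receptor for the epidermal growth factor family. Its cluster, at chr11:16729785-16833678, had 24 peaks over 104 kb and 25014 bp accessible, the largest sum among these 6. The 2536 bp peak at the start was narrower than peaks of 3282 and 2792 bp further inside the gene, both at ends of genes that do not encode proteins. Egfr was also the only one of 29 Notch, FGF, EGF and Hedgehog pathway genes that was overlapped.

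Several of the basal genes build the attachment of keratinocytes to the basement membrane. Lama3, the laminin alpha 3 chain, had 12 peaks within 53.6 kb of its interior and the largest median width of the 6, 1449.5 bp. Dst, whose epithelial form is a plakin of hemidesmosomes, had 16 peaks of 200 to 2264 bp over 73.5 kb of a 401 kb gene, and a 1368 bp peak covered one of its starts. Itgb1, the integrin beta 1 subunit, had 11 peaks over 59.8 kb, with 6 in the ground before the gene, a 2095 bp peak over the start and 4 inside. The layouts therefore ran from wholly internal at Lama3 to mainly upstream at Itgb1.

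Cdh3, the P-cadherin of basal cell junctions, had the tightest cluster of the 6, with 13 peaks in 22.6 kb. Its peaks were narrow, between 200 and 1284 bp, and the widest was at the gene end. The cluster at Krt16, Krt17 and Krt42, which encode type I keratins, held 13 peaks over 47.9 kb. Gene ends carried its 2 widest peaks, of 3520 and 2337 bp.

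**Figure D4:**
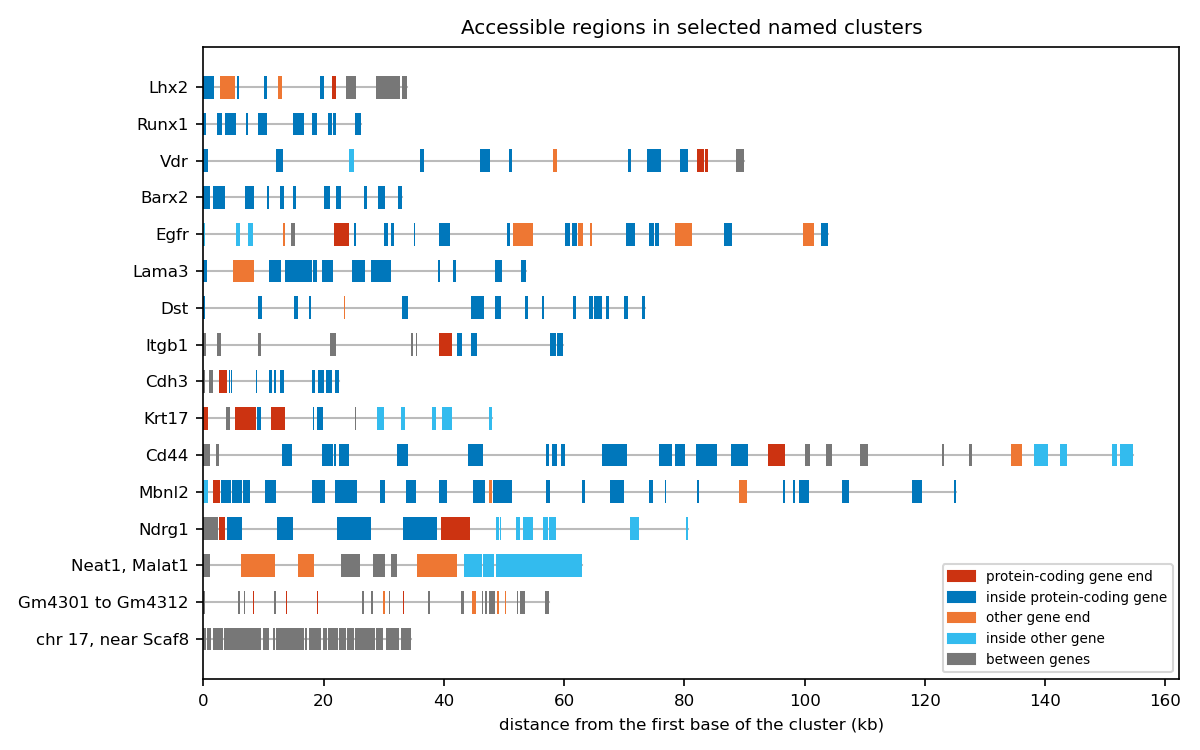
Peaks (boxes, to scale) of selected named clusters, each drawn from its first base, with the distance in kb on the x axis; colour gives the location of the peak midpoint. Runx1 and Barx2 are blue throughout, Lhx2 ends in grey peaks beyond the gene, and the stretch near Scaf8 is almost continuous, with 87.5% of its span accessible.

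Genes of cell junctions and the cytoskeleton were overlapped in 5 of 25 cases (median length 47.8 kb), among them Myh9, Actn1, Actn4 and Pkp1. Myh9, a non-muscle myosin heavy chain, had 15 peaks over 64.9 kb with 8 inside genes and a median width of 1181 bp. Actn1 and Actn4 encode alpha-actinins, which cross-link actin; their clusters of 12 and 10 peaks had median widths of 1004 and 1151 bp. Pkp1 encodes plakophilin 1 of desmosomes, and 7 of its 11 peaks lay in its interior, with a median width of 958 bp. All 4 values were above the 736.5 bp that was the median over the 374 clusters.

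Inducible transcription factor genes were overlapped in 4 of 29 cases (median length 7.72 kb), which were Ets1, Ets2, Egr3 and Bach1. Bach1 encodes a bZIP repressor that responds to heme. Its cluster had 28 peaks over 158 kb, the most peaks at any listed gene, and 14 of them lay between genes. Hmox1, the heme oxygenase gene that Bach1 is known to repress, lay in another mid-size cluster with Hmgxb4, Tom1 and the listed gene Mcm5. Ets1 and Ets2 encode ETS factors, and the 17 peaks at Ets1 were all inside the gene. At Ets2, 5 of 16 had their midpoint within its bounds, among them the 2035 bp peak at the gene end.

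BMP and TGF-beta genes were overlapped in 4 of 28 cases (median length 34.0 kb). Smad4, the SMAD shared by both pathways, had the shortest span of all 374 clusters, with 10 peaks in 15049 bp and 52.3% accessible. Smad7, an inhibitory SMAD, had 10 peaks over 34.8 kb with 38.9% accessible. Id1 encodes a helix-loop-helix inhibitor induced by BMP; it shared a 12-peak cluster with H13 and Mcts2, and a 2829 bp peak covered 970 bases of its 1.16 kb. Grem1 encodes a secreted BMP antagonist and had a 3390 bp peak over its end, with 1800 of those bases inside the gene. These genes thus included a shared transducer, an inhibitor, a target and an antagonist.

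Other lists had fewer genes in clusters by count. By share, the sebaceous list given below (16.7%) stood above the hair follicle stem cell list (14.3%). None of 29 WNT genes was overlapped, although 22 of them had a peak at an end and their median length was 46.4 kb. None of 19 hair shaft, 15 melanocyte, 17 endothelial or 17 neuronal genes was overlapped either. Epidermal differentiation gave 2 of 24, the cornified envelope gene Sprr2a1 and the lipid transporter gene Abca12. Sprr2a1 was in a cluster of 21 peaks, of which 16 lay between genes, with a median width of 363 bp. The gene Sprr2a1 itself held only 1 member peak, of 200 bp. Single genes came from the dermal fibroblast list (Dpp4, 1 of 18), the immune list (Fcgr3, 1 of 20), the housekeeping list (Rplp0, 1 of 18) and the cell cycle inhibitors (Btg2, 1 of 12).

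The sebaceous list gave 2 of 12 (Scd3 and Cidea) and the cell cycle list 2 of 25 (Cdk4 and Mcm5), and at these genes few member peaks lay within the gene itself. Scd3 held 1 member peak of 564 bp and Cidea 2 with 502 bp in all, and neither had a peak at an end. Mcm5, which encodes a subunit of the replicative helicase, was reached by 1 peak of 1631 bp with 594 bases inside the gene. Cdk4, in a cluster of 8 genes, was touched at its ends by peaks of 1310 and 322 bp with 902 bases inside the gene. Fcgr3, an Fc receptor gene, shared its cluster with transfer RNA genes, and 7 of the 12 peaks lay at ends of genes that do not encode proteins.

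Ranked by accessible bases, the leading clusters were of 2 kinds. In the first, many separate peaks stood along 1 or a few genes. Cd44, the hyaluronan receptor, had 27 peaks over 155 kb with 43.2 kb accessible, of which 14 peaks lay inside the gene, 7 between genes and 1 at the gene end. The cluster from B3gat3 to Ahnak, a giant scaffold protein gene, had 35 peaks, 60.5 kb accessible and the longest span, 191 kb. Mbnl2, a splicing regulator gene, had 27 peaks with 23 inside protein-coding genes. Ndrg1 had 15 peaks with a median width of 1635 bp. The cluster at S100a10 and S100a11, which encode S100 proteins that bind annexins, had 27 peaks with 20 between genes.

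Further clusters with broad peaks were at Myof, which encodes the membrane protein myoferlin (11 peaks, median width 1805 bp), and Kat2b, a histone acetyltransferase gene (10 peaks, 1520 bp). The stretch near Frmd8 that holds the nuclear non-coding RNA genes Neat1 and Malat1 had only 10 peaks. Their median width was 2940 bp, the widest was 14365 bp, and 65.5% of the 63.0 kb was accessible. No protein-coding gene lay under it.

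The second kind consisted of stretches with a large accessible share, which ran from 52.5 to 88.0% in the clusters named next. Most lay at provisional gene models or over no protein-coding gene. The cluster at Gm38510, C130026I21Rik and Gm7592 on chromosome 1 led with 101 kb accessible in 35 peaks, or 86.9% of its span. At Sfi1, Gm51877 and Eif4enif1 on chromosome 11, 1 peak of 50760 bp held 58.4% of the accessible bases. That cluster began with the first peak of its chromosome, at base 3099948. On chromosome 6, neighbouring clusters at Gm40363 and at Gm40369, Gm40367 and Gm40365 were 61.8% and 88.0% accessible. Clusters near Scaf8 and near Hnf4g began with the first peak of chromosomes 17 and 3, at bases 3004390 and 3000202, and held no gene. Near Olfr161 on chromosome 16, 16 peaks between genes were 52.5% accessible, and near Defb33 on chromosome 8, 11 peaks were 55.8% accessible. These clusters are reported as uncertain where their genes or other DNA have near-identical copies. The reason is that how reads that match several places were treated is unknown here. The same caveat holds for the clusters of narrow peaks described next.

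Clusters with narrow peaks formed the opposite group. The smallest median widths were 231 bp at Gm4301 and its neighbours (23 peaks), 238 bp at Gm10377 and Gm21977 (17 peaks), 258 bp at Gm21304 (12 peaks), 261 bp at Gm51596 (10 peaks) and 263.5 bp near Obox2 (18 peaks). At Gm10377 and Gm21977 the peaks covered 4.82% of 99.6 kb, the lowest share of all clusters. Some clusters with many peaks were also narrow, with medians of 355 bp at Zfp980 (37 peaks) and 299 bp at Rex2 (35 peaks). The cluster with 39 peaks, near Gas8, lay over the 5S ribosomal RNA genes. Its widths stayed between 290 and 753 bp, and 36 of its midpoints were at ends of those and other non-coding genes.

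**Figure D5:**
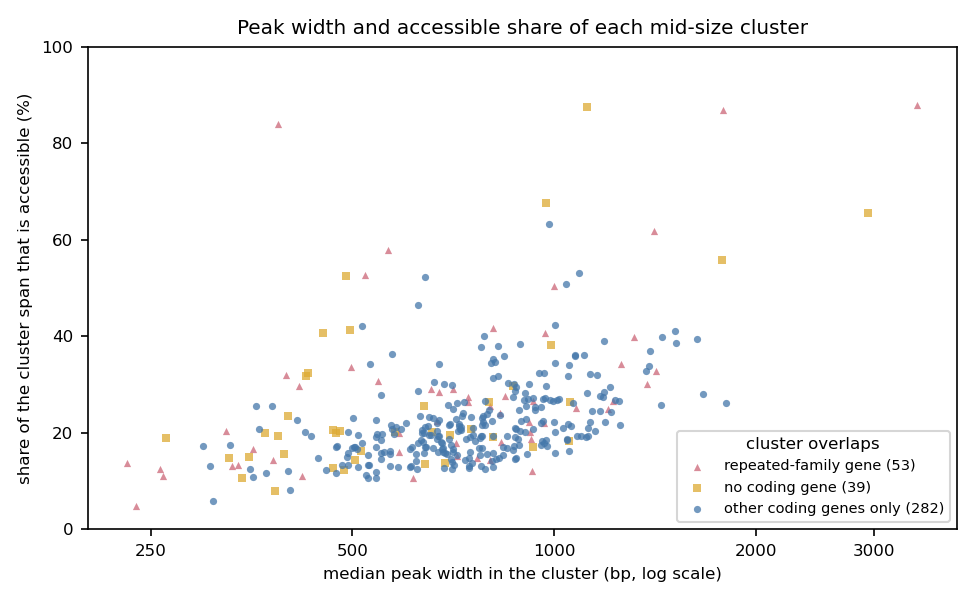
Each point is 1 of the 374 clusters, with its median peak width in bp on a log scale (x axis) and the share of its span that is accessible in % (y axis). Triangles mark clusters that overlap a gene of a repeated family or a provisional gene model, squares those with no protein-coding gene and circles the rest. Most circles lie between 10 and 40%, and the points above 80% are triangles and 1 square.

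Clusters at repeated families were set apart by gene symbol. In this way 53 clusters overlapped a gene of a family such as zinc finger or histone genes, or a provisional gene model. Provisional models, which are a naming status rather than a family, were in 32 of the 53. The share of all genes with such symbols is not given here. A further 39 clusters overlapped no protein-coding gene. Peaks of the 53 and of the 39 clusters had median widths of 632 and 514 bp, against 767 bp in the other 282 clusters. The narrower peaks were not shared by all of the 53. Zinc finger clusters by symbol numbered 11 and had a median width of 436 bp. Peaks of the 32 clusters with provisional models had a median of 714 bp, the same as all members. Their cluster medians ran from 231 to 3480 bp. The 4 histone clusters had a median width of 1212.5 bp, and 56.0% of their peaks lay over start windows. With the repeated-family clusters and the 16 clusters of over 50% accessible span left out, a choice made after seeing the data, 312 clusters with 4231 peaks stayed. Their median width was 721 bp, with 51.7% of peaks inside protein-coding genes and 9.10% at protein-coding gene ends.

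Among the 38 clusters of 20 or more peaks, 27 overlapped only protein-coding genes that were outside those families by symbol. They are named here after their values were seen. Sdc1, which encodes the heparan sulfate proteoglycan syndecan 1, had 23 peaks over 69.5 kb with 26.4 kb accessible. Gja1, the connexin 43 gene, had 22 peaks, and Lmo7, a gene of adherens junctions, had 26 spread over 168 kb. The cluster at Lin7c, Lgr4 and Ccdc34 had 26 peaks; Lgr4 encodes a receptor for R-spondins. Zyx, a focal adhesion gene, shared 26 peaks with 5 other genes over 121 kb. Nfkb1, an NF-kappaB subunit gene, had 26 narrow peaks with a median width of 329 bp, all but 1 of them in its interior. Of the 27, only Rex2, at 299 bp, had a smaller median, and Sprr2a1 and Sprr2a2 followed at 363 bp. Rex2 was among the 27 only because its symbol matches no family pattern. Its cluster was counted above with those around zinc finger genes on chromosome 4.

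Clusters were not spread evenly over chromosomes. Chromosome 8 had 31 clusters, or 0.240 per Mb, and chromosome 11 had 8, or 0.0656 per Mb. The share of a chromosome's peaks that were members ran from 11.1% on chromosome 16 to 3.14% on chromosome 11. Chromosome 4, with the zinc finger clusters, had the most clusters, 32.

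Overlapped genes were more often open at their ends than other genes, and the rule fixes part of this, since an overlapped gene has a member peak in or near it. A peak touched an end of 630 of 693 overlapped genes (90.9%) and 11550 of 19972 other genes (57.8%). Where strand was known, the start end was open in 85.8% of overlapped genes and 55.6% of other genes. The far end was open in 42.5% of overlapped genes (221 of 520) and 10.4% of other genes (1655 of 15937).

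The gene deleted in the knockout lay outside the mid-size clusters. Foxc1, which encodes a forkhead transcription factor, was in a cluster of 3 peaks on chromosome 13. The nearest mid-size cluster, at Pxdc1 and Fam50b, was 2839.7 kb away and had 13 peaks over 93.3 kb with 16.1% accessible. Since the list does not separate the genotypes, whether any mid-size cluster differed between Foxc1 knockout and control was not tested.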

How the data were processed

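ATAC-seq was run on hair follicle stem cells sorted from Foxc1 knockout and control mice, 1 library each, read in 2 runs. Per the submitters' processing notes, the tools were Bowtie2, MACS2 and bedtools and the build mm10. Not given in the sources used here are their versions and settings, any Tn5 offset, the treatment of reads that match several places, and whether reads were pooled before peaks were called. What the authors deposited was peak coordinates only, another kind of value than a count or a score, so depth is unknown, peak strength could not be used, and 0 per-sample columns stayed unused. There are no replicate values, so no test was made and no p-value is given.

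Starts were converted to 1-based positions. Peaks on chromosomes 1 to 19 were joined where the gap was under 12.5 kb, and clusters of 10 to 39 peaks were kept. Gene bounds came from a RefSeq table of assembly GRCm38.p6, which shares its primary coordinates with mm10, with 20665 protein-coding genes on these chromosomes. Overlap meant at least 1 shared base. Strand, starts and promoter sequence came from RefSeq windows that covered 16457 of those genes, 250 bases before to 50 after a start; windows on chromosome 18 were not used here. Repeated families were assigned by gene symbol, and provisional Gm or Rik gene models were counted with them. Listed genes absent from the set on these chromosomes were Awat1, Awat2, Gpr143, Trdc, Syn1, Hprt and Pgk1. The code for joining, overlaps, location classes and gene-end peaks was tested on simulated data. Shares have 95% Wilson intervals, which cover counting error only. Python 3.11.15, pandas 2.3.3, numpy 2.4.6, scipy 1.17.1 and matplotlib 3.10.9 were used.

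The members, gene lists and motifs were chosen with earlier results of these data known. The text names each cluster that overlaps a listed gene, the 10 clusters with the most accessible bases and the 10 with the largest median width. It also names the 5 with the most peaks, the 5 with the smallest median width, the 5 with the most accessible bases and no protein-coding gene, the 5 with the largest accessible share, genes in 3 or more clusters, and the cluster nearest to Foxc1. Of the clusters this rule picks, 1 is not reported here. Other gaps, size bounds, width filters, gene end distances and overlap rules were tried, and the closing section gives their effect.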

Additional observations from a re-analysis of the deposited data

How the results depend on the processing

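No paired analysis was possible because the list has no value per run or genotype, and for the same reason no run could be left out. A total of 13 other settings were tried, 1 of them chosen after seeing the data, and values below are those that left the 95% interval of the reported share or median, or moved a count by over 1.5 times. The main values are in the report. Of the values for single gene lists, 130 stayed within that range and 68 did not.

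With gaps under 5 kb there were 97 clusters and 1612 peaks (2.16% of the list), a median span of 31580 bp, 13 peaks per cluster and 41.5% of the span accessible. The median width was 580 bp, and the median width of members minus that of other peaks was -14 bp, so its direction turned round. This width difference was the only comparison with other peaks that was repeated under the settings. The location shares of other peaks were not recomputed. Of the members, 6.64% were at protein-coding gene ends, 43.6% inside such genes and 30.6% between genes. Of these clusters 76.3% overlapped a protein-coding gene, with 122 genes, 117 of them open at an end, 6 listed genes and 35 repeated-family clusters. With gaps under 25 kb there were 1239 clusters and 17939 peaks (24.0% of the list), a median span of 98419 bp, 13 peaks per cluster, 12.05% of the span accessible and a width difference of 166 bp; 14.1% of peaks were at gene ends, 45.8% inside and 28.4% between genes, with 3302 genes, 2819 open at an end, 113 listed genes and 173 repeated-family clusters. Gaps between midpoints left 5.98% of the list as members.

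Leaving out the 200 bp peaks gave 6.59% of the list and a median width of 748 bp. Leaving out peaks under the list's median of 587 bp gave 87 clusters and 1172 peaks (3.13% of the list), a median span of 58061 bp with 30.0% accessible, a median width of 1185 bp and a width difference of 163 bp; 13.7% of peaks were at gene ends, 52.0% inside and 22.8% between genes, and 93.1% of clusters overlapped a gene, with 200 genes, 194 open at an end, 11 listed genes and 17 repeated-family clusters.

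With 10 or more peaks and no upper bound, members were 9.07% of the list, with a median width of 681 bp, a width difference of 95 bp, and 9.18% at gene ends, 43.7% inside and 31.3% between genes. With 8 to 49 peaks there were 774 clusters and 8645 peaks (11.6% of the list), a median span of 44864.5 bp, 9 peaks per cluster, 1270 genes, 1148 open at an end, 50 listed genes and 80 repeated-family clusters. With 15 to 39 peaks there were 97 clusters and 1979 peaks (2.65% of the list), a median span of 74034 bp, 18 peaks per cluster, 22.5% of the span accessible, a median width of 657 bp and a width difference of 65 bp; 7.23% of peaks were at gene ends and 27.1% between genes, and 83.5% of clusters overlapped a gene, with 167 genes, 152 open at an end, 9 listed genes and 12 repeated-family clusters.

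Gene ends of 2.5 kb held 18.0% of members, with 43.4% inside and 21.3% between genes; ends of 500 bp held 7.99%, with 52.1% inside and 27.3% between genes. Requiring at least 50% of a cluster's peaks inside a gene left 51.3% of clusters with a gene, 212 genes and 18 listed genes. Without repeated-family clusters (0 left) and those of over 50% accessible span, members were 5.66% of the list, with 9.10% at gene ends and 51.7% inside genes. Gene bounds extended by 10 kb moved none of the values that this setting bears on outside that range. With depth unknown, a missing peak cannot be told apart from too few reads.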

Other observations

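On the X chromosome, which the rule leaves out, the same joining gave 16 clusters of 10 to 39 peaks with 272 of its 2693 peaks, and 1 cluster of 63. Among them, the 10 peaks from Wdr45 to Gripap1, which include the transcription factor gene Tfe3, spanned 76.3 kb with a median width of 872.5 bp. Msn, which encodes the membrane-cytoskeleton linker moesin, had 12 peaks over 59.3 kb with a median width of 788.5 bp. At Mid1, 13 peaks covered 81.7% of 49.2 kb, with 1 peak of 22936 bp. Of these 17 clusters, 5 overlapped a protein-coding gene.

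MicroRNA genes lay within some mid-size clusters on chromosomes 1 to 19. Mir23b, Mir27b and Mir24-1 were in the 20-peak cluster inside Aopep, of which 35.2% was accessible. Mirlet7e and Mir125a were in the cluster at Spaca6 and Has1, a hyaluronan synthase gene, with 14 peaks and 50.8% accessible. Mir29a and Mir29b-1 were in a 12-peak cluster near Klf14, and Mir130a was in the cluster at Zdhhc5, Clp1 and Ypel4. None of these lay under a member peak, whereas Mir6546 and Mir6347 did. Whether Mir99b, also in the cluster at Spaca6 and Has1, lay under a member peak is not given here.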
